A study of Gallus gallus with 9 samples.

Results

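Among 12155 genes measured in 9 chick embryos, 27 were on in 4 embryos and absent or nearly absent in the other 5. They were chosen from the measured values themselves. A gene was taken if its lowest value over PtcDLoop2 replicate 3 and control GFP replicates 1, 2 and 4 was at least 10 normalized counts, and if its highest value over the other 5 embryos was at most 10% of that lowest value. Normalized counts are the authors' read counts per gene after division by the size factor of each library. The separation of the 4 embryos from the 5 others is therefore what the choice used, and it is given below as a description with no test. The description of the genes as on in 4 of 9 embryos held for 26 of the 27. The most abundant one, ENSGALG00000014366, also had a clear lower level in 4 of the other 5.

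RNA was taken from sorted GFP-positive cells labelled as coelomic epithelium, the sheet of cells that lines the embryonic body cavity, and each library comes from 1 embryo. In the PtcDLoop2 group, 5 embryos were electroporated at Hamburger-Hamilton stages 12 to 13 with pCIG-PtcDLoop2, a plasmid that carries both GFP and a Patched receptor meant to block Hedgehog signalling. In the control GFP group, 4 embryos were electroporated at the same stages with pMES, which carries GFP alone. All were harvested 14 h later, near stage 16, and the GFP-positive cells were sorted from tissue taken behind the heart on both sides. The 4 embryos with the 27 genes were thus 1 of 5 in the PtcDLoop2 group and 3 of 4 in the control GFP group. Electroporation reaches only some cells, so each library is a mixture set by where the plasmid entered. The promoters of the plasmids are not given in the sources used here. The identifiers are not paired with gene names or chromosomes in the files or in the reference table, where 0 of the 27 matched. The tissue label was therefore not checked against marker genes, and neither roles nor sequences of the 27 genes are given.

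In birds the sex chromosomes are Z and W, and the female is the sex that carries a W. Genes on the W are transcribed in females alone, in most tissues and from early stages, and the few genes kept on the W mostly have a related partner on the Z. Chick cells are also known to keep a sexual identity of their own before the gonads form. Embryos at these stages cannot be sexed by eye, and the labels give no sex. Whether the 27 genes lie on the W chromosome was not tested here.

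Reads in genes numbered between 10388989 and 13517164 per library. The 4 embryos with the genes had 11073241 to 13517164 reads and 10303 to 11697 detected genes, and the 5 others had 10388989 to 12234207 reads and 10074 to 11357 detected genes, so the ranges overlapped. Control GFP replicate 4, which has the genes, and PtcDLoop2 replicate 1, which lacks them, had the fewest detected genes. A pair of libraries on opposite sides, PtcDLoop2 replicate 3 with the genes and control GFP replicate 3 without them, also shared a pattern. By the same limits, 9 genes were at 0.8 normalized counts or less in both of them and at 12.7 to 298.6 in each of the other 7. A further 2 genes, ENSGALG00000007001 and ENSGALG00000011664, were at 14.5 to 24.6 in this pair and at 0.9 or less in the other 7. None of the 27 genes could be among these 11, because the choice of the 27 puts the 2 libraries of this pair on opposite sides. The pattern of this pair was looked for after the values had been seen. Counts for other pairs of libraries are not set beside it, so whether 11 genes are many for a pair is not known. Each of the pair was also the library of its group that went against the others of that group for the 27 genes. Whether the labels of these 2 libraries were exchanged was not tested, and every group and direction given here rests on the labels as they stand. The group comparison, the number of genes chosen and the opposite pattern are given with and without this pair. Most other descriptions of the 4 embryos include PtcDLoop2 replicate 3 and are not given without it.

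**Figure D1:**
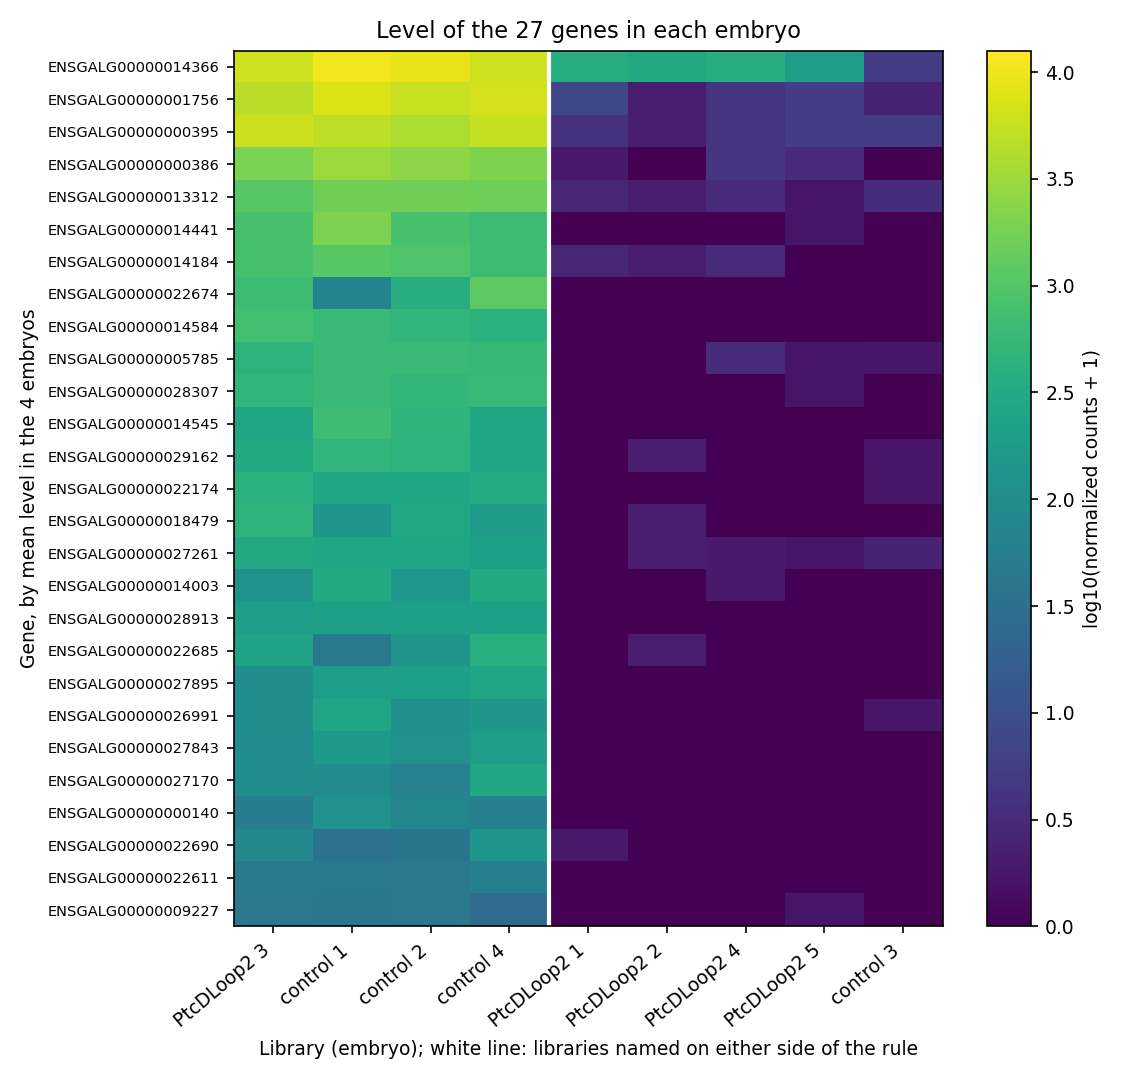
Level of each of the 27 genes (rows, ordered by mean level in the 4 embryos) in each of the 9 libraries (columns), as log10 of normalized counts plus 1. The 4 libraries left of the white line are at 26.3 normalized counts or more in every row, and to the right of it only the top row, ENSGALG00000014366, rises above 6.4.

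The levels of the genes covered a wide range. Means over the 4 embryos ran from 37.1 to 8065 normalized counts, with a median of 316. The counts are not divided by gene length, so the order of levels between genes follows length as well as abundance. The 3 highest genes were ENSGALG00000014366, ENSGALG00000001756 and ENSGALG00000000395. Together they gave 63.6% of the summed level of the 27. This share hardly moved between embryos, with 63.7% in PtcDLoop2 replicate 3 and 63.9%, 63.9% and 62.7% in control GFP replicates 1, 2 and 4. The 3 genes did not keep fixed proportions within it. The ratio of ENSGALG00000000395 to ENSGALG00000014366 ran from 0.42 to 0.94 over the 4 embryos.

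ENSGALG00000001756 was at 4772 normalized counts in PtcDLoop2 replicate 3 and at 7660, 5634 and 6484 in control GFP replicates 1, 2 and 4. In the other embryos ENSGALG00000001756 was at 6.4, 1.1, 3.1 and 4.5 in PtcDLoop2 replicates 1, 2, 4 and 5, and at 1.6 in control GFP replicate 3. Every embryo with a high value of this gene thus lay more than 100 times above every embryo with a low one. ENSGALG00000000395 was at 6076 in PtcDLoop2 replicate 3 and at 4904, 3893 and 5490 in control GFP replicates 1, 2 and 4. Its values in the other embryos were 2.8, 1.1, 3.1 and 4.5 in PtcDLoop2 replicates 1, 2, 4 and 5 and 4.1 in control GFP replicate 3. Here the PtcDLoop2 embryo was the highest of the 4, whereas for ENSGALG00000001756 it was the lowest.

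A further 3 genes had means of at least 1000 normalized counts over the 4 embryos. These were ENSGALG00000000386 at 2338 ± 491 (SD, n = 4), ENSGALG00000013312 at 1456 ± 255 and ENSGALG00000014441 at 1056 ± 621. Between 300 and 1000 there were 8 genes. The higher 4 of them were ENSGALG00000014184 with a mean of 863, ENSGALG00000022674 with 555, ENSGALG00000014584 with 551 and ENSGALG00000005785 with 546. The lower 4 were ENSGALG00000028307 with a mean of 543, ENSGALG00000014545 with 418, ENSGALG00000029162 with 388 and ENSGALG00000022174 with 316.

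The remaining 13 genes had means under 300 normalized counts. From the highest down, the first 5 were ENSGALG00000018479 with a mean of 263, ENSGALG00000027261 with 257, ENSGALG00000014003 with 228, ENSGALG00000028913 with 209.8 and ENSGALG00000022685 with 199. The next 4 were ENSGALG00000027895 with 191, ENSGALG00000026991 with 159, ENSGALG00000027843 with 142 and ENSGALG00000027170 with 129. The 4 genes under 100 were ENSGALG00000000140 with a mean of 76.6, ENSGALG00000022690 with 74.4, ENSGALG00000022611 with 48.2 and ENSGALG00000009227 with 37.1. Even the lowest of these had 26.3 normalized counts or more in each of the 4 embryos. All 27 passed the filter on low values used for the test below (10 or more normalized counts in 4 or more libraries), because the choice itself asked for that.

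Few genes came close to the limits of the choice. The ratio of the lowest of the 4 embryos to the highest of the 5 others was 100 or more, or had no read in the denominator, in 23 of the 27 genes and between 10 and 100 in the other 4. Just inside the limit of 10%, the highest other embryo had 5.65% of the lowest of the 4 for ENSGALG00000014366 and 2.66% for ENSGALG00000022690. Just outside it, this value was 19.9% for ENSGALG00000010865 and 21.9% for ENSGALG00000008757. ENSGALG00000010865 was at 63.5 in PtcDLoop2 replicate 3, at 21.9, 43.5 and 18.6 in control GFP replicates 1, 2 and 4, at 2.1 and 3.7 in PtcDLoop2 replicates 4 and 5, and at 0 in the other 3 libraries. ENSGALG00000008757 was at 40.5 in PtcDLoop2 replicate 3, at 30.1, 36.1 and 39.4 in control GFP replicates 1, 2 and 4, at 6.6 in control GFP replicate 3 and at 0 elsewhere. Just under the minimum of 10 were ENSGALG00000001585, with a lowest value of 8.3 in the 4 embryos, and ENSGALG00000022683, with 8.2, both at 0 in all 5 others. Beyond ENSGALG00000010865 and ENSGALG00000008757, only 1 gene had a ratio of 2 to 3, and 3 had a ratio of 1.5 to 2.

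The opposite pattern was not found. By the same limits with the 2 sets of embryos exchanged, 0 genes were on in the 5 and off in the 4. The largest ratio of the lowest of the 5 to the highest of the 4 was 2.91, in ENSGALG00000028514, which is named here because it was the extreme. Without PtcDLoop2 replicate 3 there was 1 gene with the opposite pattern, ENSGALG00000028012. It was at 0 in control GFP replicates 1, 2 and 4 and at 11.0 to 40.3 in the other 6 libraries, PtcDLoop2 replicate 3 included at 24.5.

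**Figure D2:**
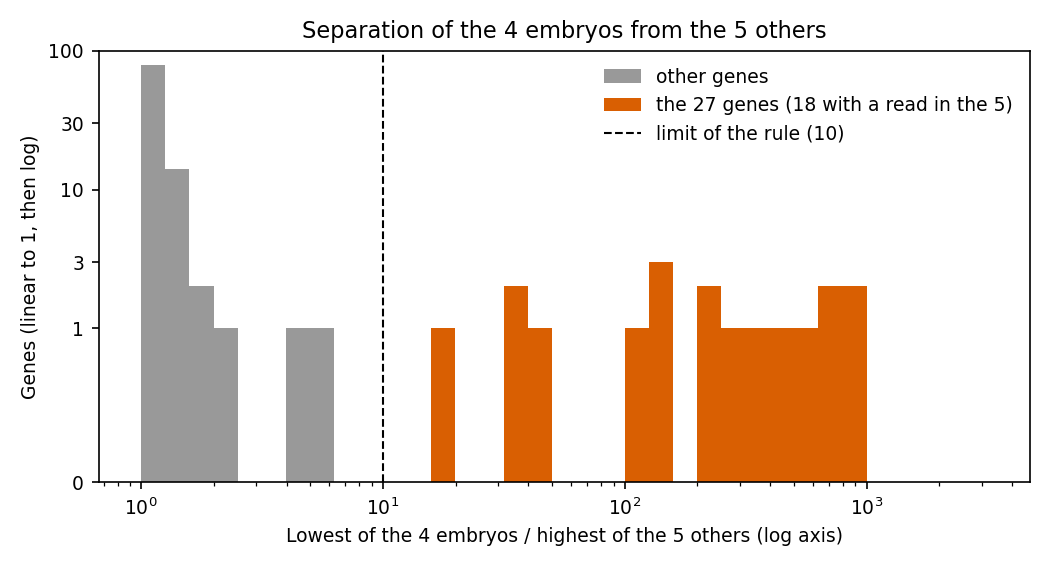
Number of genes (vertical axis, linear to 1 and logarithmic above) by the ratio of the lowest of the 4 embryos to the highest of the 5 others (horizontal log axis), for genes with at least 10 normalized counts in each of the 4, a ratio of at least 1 and a read in the 5. The 18 of the 27 genes with such a read (orange) lie right of the dashed limit, and no other gene (grey) has a ratio above 5.03.

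The 4 embryos were alike in the summed level of the 27 genes. It was 27123 normalized counts in PtcDLoop2 replicate 3 and 35764, 29322 and 29134 in control GFP replicates 1, 2 and 4, with a mean of 30336 ± 3753 (SD, n = 4) and a coefficient of variation of 12.4%. Control GFP replicate 1 was the highest of the 4, and without it the coefficient of variation was 4.27%. These sums were between 0.236% and 0.339% of the reads of each library, and sums of other genes were not set beside them. In bulk samples such as these, fewer cells of a type and less RNA per cell cannot be told apart.

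Most single genes varied more than their sum, though ENSGALG00000028913 at 6.35% and ENSGALG00000028307 at 7.98% varied less. The coefficient of variation over the 4 embryos had a median of 24.9% and ran from 6.35% to 82.6%, of which counting error alone had a median of 5.38%. It was under 25% in 14 genes, from 25% to 50% in 8 and over 50% in 5. Over the same 4 libraries, the median was 32.0% for the 7286 tested genes with means in the same range, with quartiles of 20.7% and 47.7%. The median of the 27 lay between these quartiles, while single genes lay below and above them.

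ENSGALG00000028913 was the steadiest of the 27. It was at 191.9 in PtcDLoop2 replicate 3 and at 219.9, 207.3 and 220.0 in control GFP replicates 1, 2 and 4, with 0 in the 5 others. Its coefficient of variation, 6.35%, was no larger than the 6.66% that counting error gives at this level. ENSGALG00000028307 was nearly as steady, at 494 in PtcDLoop2 replicate 3 and at 590.5, 522 and 566 in control GFP replicates 1, 2 and 4. In the other embryos ENSGALG00000028307 had 1 read, in PtcDLoop2 replicate 5. The ratio of ENSGALG00000028307 to ENSGALG00000028913 stayed between 2.52 and 2.69 in the 4 embryos, the tightest of the 351 pairs that the 27 genes form.

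The most variable gene was ENSGALG00000022674. It was at 641 in PtcDLoop2 replicate 3, at 70.3, 363 and 1148 in control GFP replicates 1, 2 and 4, and at 0 in the 5 others. Control GFP replicate 4 thus had 16.3 times the level of control GFP replicate 1. ENSGALG00000022685 and ENSGALG00000022690 had the same order of embryos, and these 3 were the only genes of the 27 with over 4-fold between the embryos that had them. ENSGALG00000022685 was at 228 in PtcDLoop2 replicate 3 and at 44.7, 131 and 393 in control GFP replicates 1, 2 and 4, and ENSGALG00000022690 at 82.6, 33.8, 38.9 and 142. In the 5 others each of the latter had 1 read, ENSGALG00000022685 in PtcDLoop2 replicate 2 and ENSGALG00000022690 in PtcDLoop2 replicate 1. ENSGALG00000022683, just under the minimum, also had this order, with 37.5 in PtcDLoop2 replicate 3 and 8.2, 28.7 and 87.6 in the 3 controls. These genes moved against the summed level, which was highest in control GFP replicate 1. How reads were handled where annotated genes overlap or have near-identical copies is not given in the sources used here, nor is strand use in counting.

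The ratios between genes changed by a median of 2.53-fold over the 4 embryos. The SD of the log2 ratio over the 4 embryos had a median of 0.61 over the 351 pairs, beside 0.75 over all 31051140 pairs of the 7881 tested genes with at least 10 normalized counts in each of the 4. In 36 pairs, 10.3% of all, the ratio stayed within 1.5-fold over the 4 embryos. It changed over 10-fold in 38 pairs, and each of these contained ENSGALG00000022674, ENSGALG00000022685 or ENSGALG00000022690. Without these 3 genes the median SD of the log2 ratio was 0.51 over 276 pairs, an alternative chosen after seeing the data. Genes are no independent replicates. As a description over the 27, Spearman's rho between the levels of any pair of the 4 embryos ran from 0.79 to 0.97. No rho of other genes was set beside this, and a wide range of levels between genes raises it. The lowest rho was between control GFP replicates 1 and 4.

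**Figure D3:**
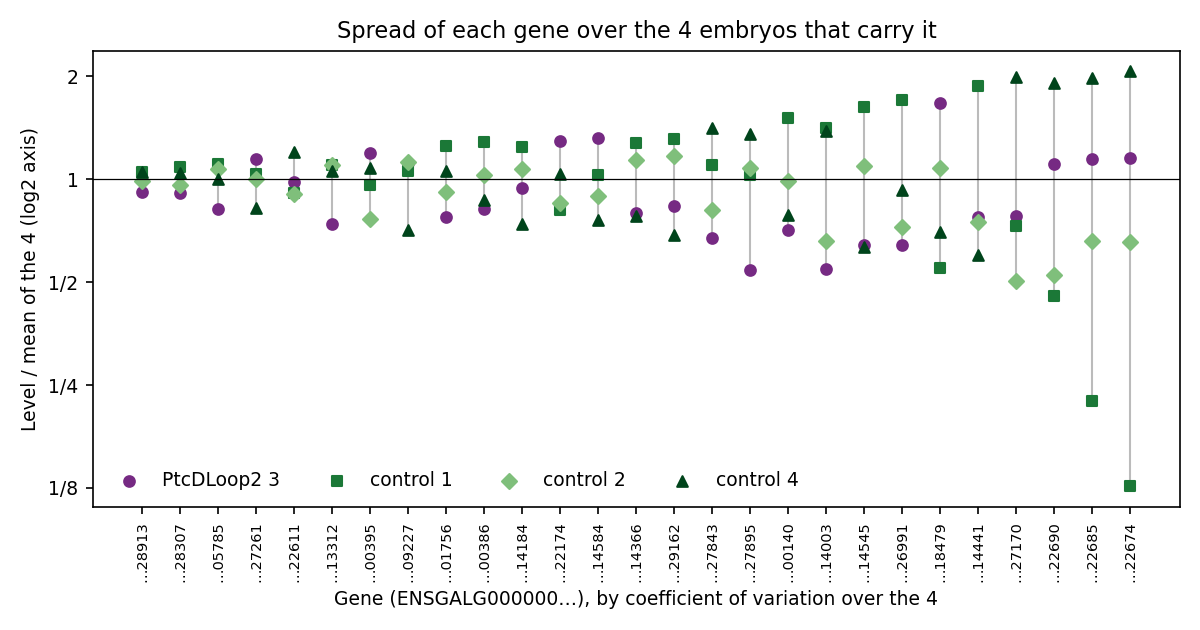
Level of each gene in each of the 4 embryos with the genes, divided by its mean over the 4 (vertical log2 axis), with genes ordered by coefficient of variation. The grey lines join the lowest and highest embryo, and the rightmost gene, ENSGALG00000022674, spans 16.3-fold while the leftmost, ENSGALG00000028913, spans 1.15-fold.

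The 4 embryos did not share one order of levels. Control GFP replicate 1 was the highest of the 4 in 13 of the 27 genes, control GFP replicate 4 in 8, PtcDLoop2 replicate 3 in 5 and control GFP replicate 2 in 1, which was ENSGALG00000009227. For the 7881 tested genes these shares were 32.1%, 29.2%, 19.2% and 19.5%. The single PtcDLoop2 embryo of the 4 lay between the lowest and the highest of the 3 controls in 11 genes, above all 3 in 5 and below all 3 in 11. Over the tested genes it lay between them in 58.6%, above in 19.1% and below in 22.3%. The log2 ratio of PtcDLoop2 replicate 3 to the mean of the 3 controls had a median of -0.34 over the 27 genes, from -1.09 to 1.1, beside -0.07 over the tested genes. With 1 PtcDLoop2 embryo among the 4 there is no replicate check of this difference.

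Residual signal in the 5 other embryos was close to nothing for 26 of the 27 genes. No value of these 26 exceeded 6.4 normalized counts, and together they had 78 reads in the 5 libraries, 0.063% of the level in the 4 embryos. Library by library, the summed residual of the 26 was 14.6, 8.8, 17.6 and 15.4 normalized counts in PtcDLoop2 replicates 1, 2, 4 and 5 and 13.0 in control GFP replicate 3. As a share of the reads of a library this was between 7.70e-05%, with a 95% Wilson interval from 3.90e-05% to 1.52e-04%, and 1.77e-04%, with an interval from 1.16e-04% to 2.71e-04%. All of these intervals cover counting error only.

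Most of the residual reads came from the most abundant genes. The 5 genes with means of at least 1000, ENSGALG00000014366 aside, had 54 of the 78 reads, or 0.0604% of their level in the 4 embryos. The 8 genes from 300 to 1000 had 13 reads, or 0.0559%, and the 13 genes under 300 had 11 reads, or 0.0982%. ENSGALG00000001756 had 19 reads in the 5 embryos, 0.0557% of its level in the 4 with an exact 95% Poisson interval from 0.0335% to 0.0869%. ENSGALG00000000395 had 18 reads, 0.0636% with an interval from 0.0377% to 0.1%. The largest such share was 0.485% for ENSGALG00000009227, and it rested on 1 read, with an interval from 0.0123% to 2.70%. The next largest was 0.350% for ENSGALG00000027261, with an interval from 0.114% to 0.817%. It rested on 5 reads, found in 4 of the 5 embryos, which were 5 of the 11 reads of the genes under 300.

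For 9 genes no read was found in any of the 5 embryos. A count of 0 allows up to 3 reads over the 5 libraries, a mean of 0.539 normalized counts. The levels of these 9 genes in the 5 embryos were therefore at least 89.3-fold lower for the least abundant, ENSGALG00000022611, and at least 1029.8-fold lower for the most abundant, ENSGALG00000022674. In all, 18 genes of the table were above 0 in each of the 4 embryos and at 0 in each of the 5 others, and these 9 were among them. Only 2 genes of the table were above 0 in each of the 5 and at 0 in each of the 4.

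ENSGALG00000014366, the most abundant of the 27, went against this. It was at 6442 normalized counts in PtcDLoop2 replicate 3 and at 10305, 9209 and 6303 in control GFP replicates 1, 2 and 4, a mean of 8065 ± 2005 (SD, n = 4). In PtcDLoop2 replicates 1, 2, 4 and 5 it was at 352, 313, 356 and 192, from 382, 295, 347 and 257 reads. In control GFP replicate 3 it was at 4.1, from 5 reads, with an exact Poisson interval from 1.33 to 9.58. The 5 embryos without the other genes thus fell apart for this gene into 4 PtcDLoop2 embryos at an intermediate level, with a mean of 303 ± 76.6 (SD, n = 4), and 1 control embryo near 0. The lowest of those 4 had 46.8 times the level of the control embryo. With a single control embryo of this kind, this difference has no replicate check and was not tested.

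The ratio between the genes restates these values and is no separate evidence. In the 5 other embryos its denominator, the sum of the other 26 genes, was only 8.8 to 17.6 normalized counts. In the 4 embryos with the 27 genes there were between 27.6 and 45.8 normalized counts of ENSGALG00000014366 for every 100 of the other 26 genes together. In control GFP replicate 3 there were 31.5 for every 100, inside that range, although this rests on 5 and 16 reads. In PtcDLoop2 replicates 1, 2, 4 and 5 there were between 1247 and 3552 for every 100. As a share of the mean of the 4 embryos with the genes, ENSGALG00000014366 was at 2.38% to 4.41% in these 4 PtcDLoop2 embryos and at 0.0508% in control GFP replicate 3. The other 26 genes together were at 0.0395% to 0.079% in all 5. Control GFP replicate 3 is also 1 of the pair of libraries that lacked 9 genes found in the other 7. The other library of that pair, PtcDLoop2 replicate 3, has the 27 genes, so whether it too lacks this intermediate level of ENSGALG00000014366 cannot be told apart from the high one. What part the difference of this pair has in the low value of control GFP replicate 3 was not tested.

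**Figure D4:**
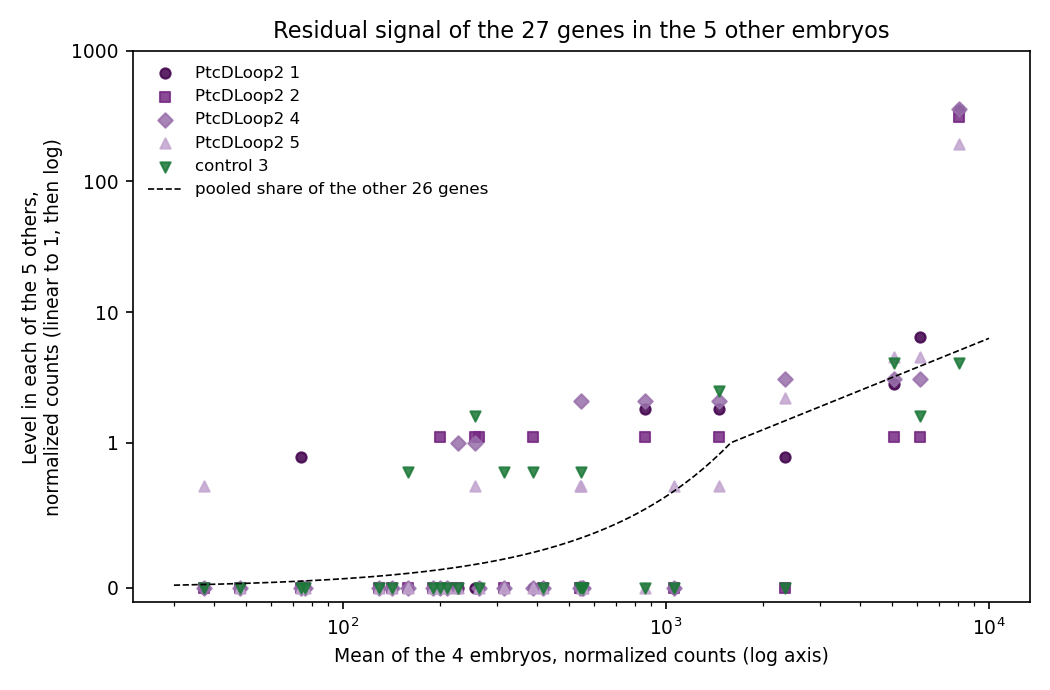
Level of each of the 27 genes in each of the 5 other embryos (vertical axis, normalized counts, linear to 1 and logarithmic above) against its mean in the 4 embryos (horizontal log axis). Points near the dashed line, 0.063% of the level in the 4, include control GFP replicate 3 for ENSGALG00000014366, whereas PtcDLoop2 replicates 1, 2, 4 and 5 lie at 192 to 356 for that gene.

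The comparison of PtcDLoop2 with control GFP embryos asks which transcripts depend on Hedgehog signalling. For the 27 genes its outcome is set by how the 4 embryos fall into the groups, so it is given for completeness. Each of the 27 had a lower mean of log2 values with PtcDLoop2, with log2 fold changes from -5.73 to -1.27 and standard errors from 1.55 to 2.98. None of the 27 had an adjusted p under 0.05 in limma's test across 9621 genes, where the share called was 0% over all genes, and the adjusted p of the 27 ran from 0.911 to 0.958. At an unadjusted p under 0.05, 10 of the 27 were lower, where the share over all genes tested was 2.76%. By limma-voom on the recovered reads, 0 of the 27 had an adjusted p under 0.05, as did 0 of the 9621 genes tested. At an unadjusted p under 0.05 limma-voom had 0 of the 27, beside 397 of all genes tested in either direction. The values of the groups overlapped in all 27, where groups without overlap and lower with PtcDLoop2 were found in 1.03% of the genes tested. Nothing is read from these counts, since all 27 share the same division of embryos.

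The 2 genes with the smallest p were ENSGALG00000026991 and ENSGALG00000027895. ENSGALG00000026991 was at 101.7 in PtcDLoop2 replicate 3 and at 270.1, 114.8 and 147.8 in control GFP replicates 1, 2 and 4, with 0.8 in control GFP replicate 3 and 0 in the other 4. Its log2 fold change was -4.41 ± 1.76 (SE), with limma adjusted p = 0.911. ENSGALG00000027895 was at 103.2 in PtcDLoop2 replicate 3 and at 196.2, 205.4 and 258.3 in control GFP replicates 1, 2 and 4, with 0 in the other 5. Its log2 fold change was -4.49 ± 1.90 (SE), with limma adjusted p = 0.911. In both genes 1 PtcDLoop2 embryo lay far above its group and 1 control embryo far below its own. In the authors' deposited table the log2 fold changes of the 27 genes run from -3.0 to -0.80, with adjusted p-values from 0.949 to 0.995, and none of them is marked. Those fold changes follow the ratio of mean normalized counts between the groups, whereas limma's are differences of mean log2(value + 1). The ranges are thus on unlike measures. For ENSGALG00000014366 the deposited value is -2.08 and limma's is -1.27.

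The group comparison of these genes rested on PtcDLoop2 replicate 3 and control GFP replicate 3. Without either one alone, limma still called 0 of the 27 and 0 of all 9621 genes tested. At an unadjusted p under 0.05, 26 of the 27 were lower without PtcDLoop2 replicate 3, and 27 without control GFP replicate 3. Over all genes tested, 555 and 632 had such a p in these fits, in either direction. Without any other single library, 0 of the 27 were lower at that p, beside 321 to 550 of all genes tested. Without both PtcDLoop2 replicate 3 and control GFP replicate 3, the remaining groups are the 2 sides by which the genes were chosen. All 3 control embryos have the 27 genes, and the 4 PtcDLoop2 embryos lack 26 of them and have ENSGALG00000014366 at its intermediate level. Limma then called 23 of the 27 lower with PtcDLoop2, and the largest limma adjusted p of the 27 was 0.262. The choice of the genes fixes the direction and a wide separation, though not each call, so nothing is read from this. Over all genes tested the share called lower was 0.249% in that fit, 24 genes. Presence of the 27 genes and the treatment then coincide and cannot be told apart. Leaving out both libraries was chosen after seeing the data.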

How the data were processed

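Per the submitters' processing notes, cutadapt 1.8.3, STAR 2.4, HTSeq 0.6.1p1, DESeq2, DESeq and build galGal4 were used, with no settings given. The deposited expression table holds normalized counts: the values show that the authors scaled the read counts of each library by its own size factor and kept 1 decimal. Its values were whole multiples of 1 step per library within 0.0535 normalized counts, so whole reads were recovered. The authors' deposited table of PtcDLoop2 against control lists the mean signal, log2 fold change, signed linear fold change and p-value of each gene, with the p-value also adjusted.

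Members and lists were chosen with earlier results of these data known. Every member is named with its mean. Values in each library are given for the 3 highest, those nearest the limits inside and outside, the steadiest, the most variable and the highest residual, and the 2 smallest p. ENSGALG00000028307, ENSGALG00000022685 and ENSGALG00000022690 were added after their values were seen. Limma 3.58.1 in R 4.3.3 was fitted with trend and robust estimation to log2(value + 1) of the 9621 genes with at least 10 normalized counts in at least 4 libraries, with the group as its only term. P-values were adjusted over all of them by the Benjamini-Hochberg method at 0.05, and the test was tested on simulated data. The submitters' design text describes each library as a biological replicate of its own. Intervals are at 95% and floors at 3 reads. Alternatives were other limits, scalings, pseudocounts and filters, limma-voom, a replicate block and leaving out libraries.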

Additional observations from a re-analysis of the deposited data

Results flagged for a closer look

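The values of 10 genes and of the summed level in each treatment group made 22 groups. A highest or lowest embryo far from the rest of its group was found 13 times, in 11 PtcDLoop2 and 2 control groups. The limit used marks about 1 in 20 groups of values not chosen beforehand. These values were chosen, so the count is no test. The choice of the genes puts 1 PtcDLoop2 embryo far above the other 4 and 1 control embryo far below the other 3. Among the controls a mark also asked that those 3 lie close together, so only steady genes were marked. PtcDLoop2 replicate 3 was far above its group in the summed level, at 27123 normalized counts. It was far above its group for ENSGALG00000014366 at 6442 and for ENSGALG00000001756 at 4772. It was at 6076 for ENSGALG00000000395, at 641 for ENSGALG00000022674 and at 494 for ENSGALG00000028307. It was at 228 for ENSGALG00000022685, at 192 for ENSGALG00000028913 and at 103.2 for ENSGALG00000027895. It was at 101.7 for ENSGALG00000026991 and at 82.6 for ENSGALG00000022690. Control GFP replicate 3, at 0, was far below the other 3 controls for ENSGALG00000028913 and ENSGALG00000028307, the steadiest of the genes where present.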

How the results depend on the processing

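Over 19 alternatives the choice found between 19 and 29 genes. The 19 came with a minimum of 100 normalized counts. Leaving out libraries can only add genes, so those counts, 27 to 29, say nothing of stability. Without PtcDLoop2 replicate 3 and control GFP replicate 3 together, only ENSGALG00000008757 was added to the 27. The summed level varied by 4.27% to 15.6% and the median SD of log2 ratios ran from 0.50 to 0.68. The residual over all 27 genes, from mean normalized counts, was 0.848% of the level in the 4 embryos and 0.0623% without ENSGALG00000014366. The opposite pattern had 0 to 1 genes when each library was left out, and 1 without PtcDLoop2 replicate 3 and control GFP replicate 3. Without that pair limma called 23 of the 27 genes, in the direction that the choice of the genes fixes. In every other alternative fit, the threshold of 0.1 and each single library left out included, it called 0 of them. Over all genes tested, at an adjusted p under 0.05, limma called 28 without that pair. It called 5 without PtcDLoop2 replicate 1 and control GFP replicate 4 together, and 0 in the other fits. The replicate block by title number called 0, and deviations of same-numbered libraries correlated by only -0.07 to 0.06 over all genes tested. Such a correlation cannot show a likeness in few genes, such as those in which both libraries numbered 3 stood apart. No fold change of the 27 genes reversed. The way the 4 embryos fall into the groups largely sets that direction, so this says nothing of stability. The single reads behind most residual values limit what can be said of them at this depth. The pair of left-out libraries, the 2 libraries with the fewest detected genes and the 3 most variable genes were left out after seeing the data.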

Other observations

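Leaving out 1 embryo with the genes brought in a few more that 1 embryo had kept out. ENSGALG00000026588 was at 156 normalized counts in PtcDLoop2 replicate 3 and at 315.8 and 175.8 in control GFP replicates 1 and 2, but at 4.4 in control GFP replicate 4. In the 5 other embryos it was at 0.7 or less. ENSGALG00000022679 was at 34.4 in PtcDLoop2 replicate 3, at 46.3 and 235.3 in control GFP replicates 2 and 4, at 3.7 in control GFP replicate 1 and at 0 in the 5 others. It had the same highest and lowest embryo as ENSGALG00000022674. These genes were chosen after their values were seen.

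Of the 9 genes that PtcDLoop2 replicate 3 and control GFP replicate 3 lacked, ENSGALG00000001754 was at 0 in both and between 89.3 and 298.6 in the other 7 libraries. ENSGALG00000028938 was at 0 in both and between 66.8 and 111.6 in the other 7. These were also named after their values were seen.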
